A study of Mus musculus with 2 samples.

Results

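Genes of the Notch pathway were examined in KSL cells, the fraction of bone marrow that is positive for c-Kit and Sca-1, negative for lineage markers, and rich in stem cells and early multipotent progenitors of blood. The set held 10 genes: the receptors Notch1 and Notch2, the protease Adam10, the adaptor Numb, the DNA-binding protein Rbpj, the co-activators Maml1, Maml2 and Maml3, and the target repressors Hes1 and Hey1. They were taken by symbol from the probe sets whose platform annotation names exactly 1 gene, and all 10 were found among 19938 such genes. The Nrf2-/- group was 1 RNA pool of KSL cells sorted from 5 C57BL/6J mice that lacked NRF2, and the Nrf2+/+ group was 1 such pool from 5 wild-type C57BL/6J mice. Both groups were young healthy animals of 8 to 10 weeks, with no treatment named in the labels, kept in a clean germ-free facility. Each pool was hybridised to 1 Affymetrix Mouse Gene ST 1.0 array, so each gene had 1 knockout and 1 wild-type value, no spread between animals could be measured and no p-value was computed. Levels are log2 intensities, and every difference is the knockout minus the wild-type log2 value.

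Notch receptors are membrane proteins that are cut when a ligand on a neighbouring cell binds them. ADAM10 makes the outer cut, gamma-secretase then frees the intracellular domain, and this domain enters the nucleus, binds RBPJ and recruits a Mastermind-like (MAML) protein, which brings in histone acetyltransferases and switches on repressors of the HES and HEY families. In blood formation Notch1 directs progenitors to the T lineage, and in the mouse embryo Notch signalling is needed for the first definitive stem cells. NRF2, encoded by Nfe2l2, drives antioxidant genes through the antioxidant response element and has been described as an activator of Notch1 in other mouse tissues, and the series set out to learn what NRF2 does for the survival of haematopoietic stem cells.

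The sequences before the start of Rbpj and the Maml genes are shown because RBPJ is the DNA-binding partner of the complex and the Maml genes, its co-activators, were all higher in knockout cells. Each is the 250 bases before a RefSeq transcript start on GRCm38.p6, read on the strand of the gene, and capitals mark the RBPJ core TGGGAA on either strand.
Rbpj, first listed start, chr5:53590096-53590345, plus strand: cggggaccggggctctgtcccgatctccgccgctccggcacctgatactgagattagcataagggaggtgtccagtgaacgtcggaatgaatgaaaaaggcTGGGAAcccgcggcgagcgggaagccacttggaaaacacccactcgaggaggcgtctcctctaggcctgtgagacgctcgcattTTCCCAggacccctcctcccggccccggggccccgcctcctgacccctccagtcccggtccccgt
Maml1, chr11:50292337-50292586, minus strand: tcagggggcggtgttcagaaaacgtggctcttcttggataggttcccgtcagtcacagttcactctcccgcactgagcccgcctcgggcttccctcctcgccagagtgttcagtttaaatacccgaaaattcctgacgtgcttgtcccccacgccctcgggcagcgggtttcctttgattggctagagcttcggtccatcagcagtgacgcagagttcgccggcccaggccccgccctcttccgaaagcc
Maml2, first listed start, chr9:13297708-13297957, plus strand: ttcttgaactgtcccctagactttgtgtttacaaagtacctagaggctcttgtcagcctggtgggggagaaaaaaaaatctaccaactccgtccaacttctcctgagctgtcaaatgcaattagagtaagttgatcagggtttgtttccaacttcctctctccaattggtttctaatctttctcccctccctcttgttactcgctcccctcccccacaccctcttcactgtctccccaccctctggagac
Maml2, second listed start, chr9:13662210-13662459, plus strand: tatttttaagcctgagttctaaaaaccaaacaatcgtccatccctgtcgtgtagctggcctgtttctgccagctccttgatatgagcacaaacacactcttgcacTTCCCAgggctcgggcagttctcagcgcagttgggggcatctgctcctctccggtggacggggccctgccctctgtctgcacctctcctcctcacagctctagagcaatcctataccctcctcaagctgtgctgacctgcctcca
Maml3, chr3:52105007-52105256, minus strand: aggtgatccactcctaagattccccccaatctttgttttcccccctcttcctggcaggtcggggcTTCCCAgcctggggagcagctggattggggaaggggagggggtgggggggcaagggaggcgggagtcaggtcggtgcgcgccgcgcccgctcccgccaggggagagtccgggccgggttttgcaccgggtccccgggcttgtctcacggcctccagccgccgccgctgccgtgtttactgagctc
The RefSeq table matched 8 of the 10 genes, with 12 starts among them, and had no entry for Hes1 or Hey1. The RBPJ core lay in 4 of these 12 windows, against 21.6% of all 32851 windows of this length. Rbpj had it at 149 to 144 and at 65 to 60 bases before its first listed start, and its second window overlaps the first and holds the nearer of these matches again. The core lay at 145 to 140 bases before the second start of Maml2 and at 185 to 180 bases before the start of Maml3. The windows of Maml1, Notch1, Notch2, Adam10 and Numb had no match. The antioxidant response element core TGACNNNGC, searched on both strands, was in 0 of the 12 windows and in 10.2% of all windows. A match describes letters only, and no match says nothing about binding elsewhere.

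Few genes differed strongly between the arrays. Over the 9970 genes whose mean level reached the median over genes, 6.57, the differences had a median of −0.02 and an SD of 0.33, and the middle 95% lay between −0.73 and 0.57. At least 2-fold differences were found for 1.17% of these genes. Genes with 2 probe sets, of which 515 passed that level filter, gave a probe-set error of 0.32 (SD) or 0.17 (robust SD) for a difference, an error that holds nothing of the variation from mouse to mouse or from sort to sort. Nfe2l2 itself was at 9.07 on the knockout array and 9.16 on the wild-type array, a difference of −0.09. The deleted part of Nfe2l2 is not named in the labels, so this probe set may not check the genotype, and the knockout array is called so from its label. The gate marker Kit was at 11.21 on the knockout array and 10.93 on the wild-type array, and Ly6a, which encodes Sca-1, was not analysed here.

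All 10 Notch genes passed the level filter, 5 higher and 5 lower on the knockout array, where 46.5% of all genes past the filter were higher and 52.9% lower by any amount, with a median difference of −0.00605. Hey1 was the single gene that differed at least 2-fold, and it was lower in knockout cells. The other 9 lay within 1.5-fold and inside the middle 95% of all genes. Among these 9 the Maml genes were higher by 0.29 to 0.43, Hes1 and Numb were lower by amounts near 0.30, and the receptors, Adam10 and the probe-set average of Rbpj were close to equal.

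**Figure D1:**
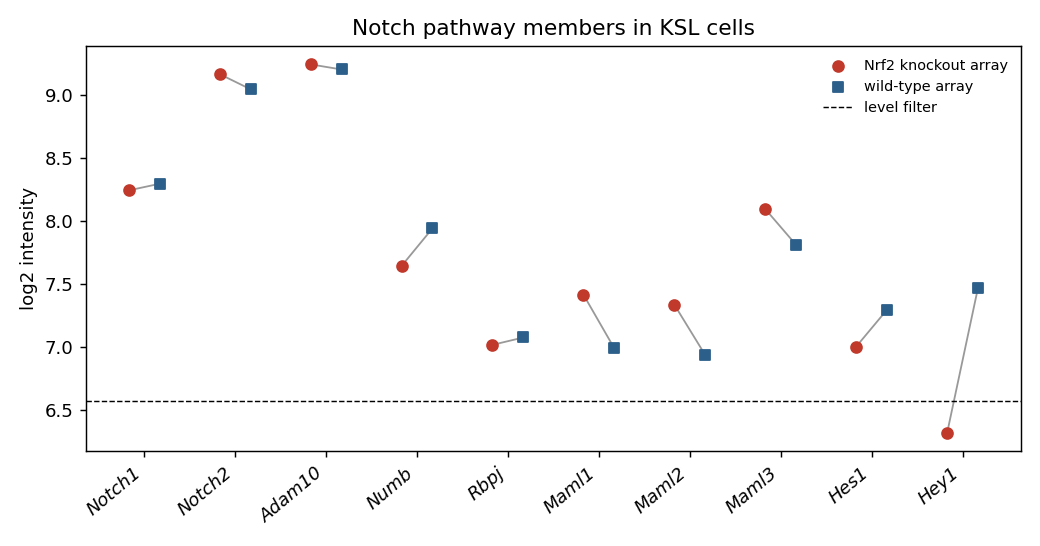
Log2 intensity of the 10 Notch genes on the knockout array (circles, left of each pair) and the wild-type array (squares, right), 1 array each, with the level filter of 6.57 as a dashed line. Hey1 is the gene with the steepest line, at 6.32 in knockout and 7.47 in wild-type cells, and its knockout value is the only one under the filter. Heights of different genes come from different probes and are not comparable.

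Both receptors were at similar levels in the genotypes. Notch1, which starts T lineage commitment, was at 8.24 on the knockout array and 8.29 on the wild-type array, a difference of −0.05. Notch2, the receptor needed for marginal zone B cells in the mouse spleen, was at 9.16 in knockout and 9.04 in wild-type cells, a difference of 0.12. Both differences were smaller than the scatter of the 500 genes nearest in level, whose SD was 0.34 around Notch1 and 0.27 around Notch2. For Notch1 the knockout level was 96.4% of the wild-type level, and for Notch2 it was 109%.

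The members that act on the receptor outside the nucleus went different ways. Adam10, the protease of the outer cut, was at 9.24 in knockout and 9.20 in wild-type cells, a difference of 0.04. Numb, an endocytic adaptor that, in Drosophila, lowers Notch signalling in the daughter cell that inherits it, was at 7.64 on the knockout array and 7.94 on the wild-type array. Its difference of −0.30 equals a knockout level of 81.3% of wild type. Of all genes past the filter, 16.2% had a lower difference than Numb, and the 500 genes nearest in level had an SD of 0.36, so the value for Numb lies within the common scatter.

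All 3 Mastermind-like co-activators were higher on the knockout array. Maml1 was at 7.41 in knockout and 6.99 in wild-type cells, a difference of 0.43 or 1.34-fold. Maml2 was at 7.33 in knockout and 6.93 in wild-type cells, a difference of 0.40 or 1.32-fold. Maml3 was at 8.09 in knockout and 7.81 in wild-type cells, a difference of 0.29 or 1.22-fold. These sizes are moderate among all genes. Maml1 ranked 532nd and Maml3 1143rd from the highest of 9970, so 11.5% of genes were higher by at least as much as Maml3. The differences exceeded the SD of the 500 nearest genes for Maml1 and Maml2, at 0.38 and 0.35, and not for Maml3, at 0.36. Maml2 was read by 2 probe sets that share part of their transcripts. The first was at 6.86 in knockout and 6.52 in wild-type cells, and the second at 7.81 in knockout and 7.35 in wild-type cells, so both were higher in knockout cells, by 0.34 and 0.46.

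Rbpj, the DNA-binding hub through which these co-activators act, depended on the probe set. The probe set annotated with the RefSeq transcripts was bright, at 9.03 on the knockout array and 9.38 on the wild-type array, a difference of −0.35. The other probe set, annotated with a single sequence record, was dim, at 5.00 in knockout and 4.77 in wild-type cells, a difference of 0.23. Their average, by which the gene was counted, was 7.02 in knockout and 7.07 in wild-type cells, a difference of −0.06. The probe sets thus disagreed in direction, and the brighter one placed Rbpj lower in knockout cells while all Maml genes were higher.

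**Figure D2:**
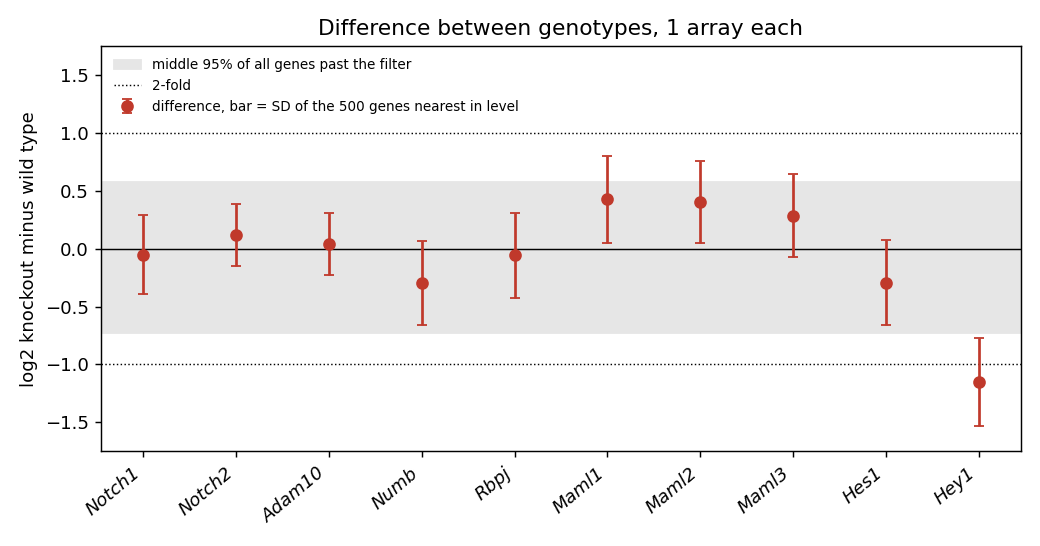
Difference between the arrays, log2 knockout minus wild type, for each of the 10 Notch genes. Each bar is ± 1 SD of the differences of the 500 genes nearest in level, not a replicate error, the grey band is the middle 95% of all genes past the filter, from −0.73 to 0.57, and dotted lines mark 2-fold. Hey1, at −1.15, is the only gene outside the band.

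Both target repressors were lower on the knockout array. Hey1, a basic helix-loop-helix repressor first studied in heart and vessels, was at 6.32 in knockout and 7.47 in wild-type cells. The difference was −1.15, so the knockout level was 45.0% of the wild-type level, or 2.22-fold lower. Only 45 of the 9970 genes past the filter had a lower difference, and 3 of the 500 genes nearest in level were at or below it. The share of all genes at least 2-fold lower was 0.762%. Hey1 passed the filter through its wild-type value, and its knockout value lay under 6.57, where weak signal makes a size less sure. With that value set to the filter level, an alternative chosen after seeing the data, the difference was −0.90 and no longer reached 2-fold.

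Hes1, the repressor most often used as a readout of Notch activity, was lower by less. It was at 7.00 on the knockout array and 7.30 on the wild-type array, a difference of −0.29, which puts the knockout level at 81.6% of wild type. Its neighbours in level had an SD of 0.37, and 16.5% of all genes past the filter had a lower difference. The other HES and HEY genes, named here after their values were seen apart from Hes7, differed by less than Hey1. Hes7, known from the segmentation clock, was at 6.51 in knockout and 6.68 in wild-type cells, and Hes6 was at 7.72 in knockout and 7.84 in wild-type cells. Hes5, a target in neural progenitors, was at 7.67 in knockout and 7.68 in wild-type cells, and its sign turned under all 3 other scalings. Heyl was at 6.41 in knockout and 6.56 in wild-type cells and Hey2 at 4.45 in knockout and 4.09 in wild-type cells, both under the filter. Of the 7 HES and HEY genes measured, Hes1 and Hey1 included and whatever their level, 6 were lower with the deposited values and Hey2 was higher. Over all 19938 genes measured, 9350 were lower and 10114 higher. The 5 HES and HEY genes past the filter were all lower with the deposited values, where 52.9% of all genes past the filter were lower. Under each other scaling 4 of these 5 genes were lower and 1 higher. Of the 9970 genes, 4981 were lower with each array centred on its median. With quantile normalization 4925 were lower, and with loess 4967. Hes7, like Hey1, passed the filter through its wild-type value, with its knockout value under 6.57.

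**Figure D3:**
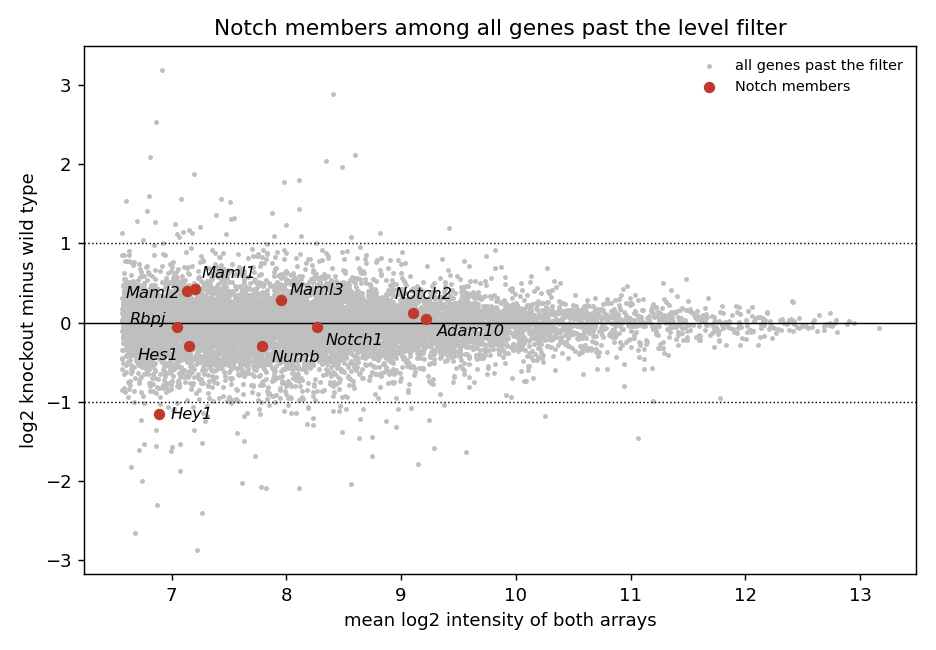
Each grey point is 1 of 9970 genes past the level filter, by its mean log2 intensity on both arrays and its difference, log2 knockout minus wild type; the 10 Notch genes are in red and dotted lines mark 2-fold. Hey1 lies at the lower edge of the cloud at its level, whereas the other 9 lie inside it.

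Outside these 10 genes, 67 further genes of the pathway were listed by role, of which 63 had a probe set naming them alone and 47 passed the filter. None of the 47 differed by 1.5-fold, against 6.64% of all genes. Of the 47, 19 were higher and 28 lower, with a median difference of −0.06. The same median over all genes past the filter was −0.02.

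Among ligands and the other receptors, signal was low and differences were small. Notch3, a receptor of vascular smooth muscle, was at 6.99 in knockout and 6.83 in wild-type cells. Notch4, found mainly in endothelium, was under the filter at 6.18 in knockout and 6.11 in wild-type cells. The ligand Dll4 was at 6.70 in knockout and 6.46 in wild-type cells, and passed the filter through its knockout value, with its wild-type value under 6.57. The ligand Jag2 was at 6.88 in knockout and 6.91 in wild-type cells. The remaining ligands were under the filter on both arrays, with Dll1 at 5.52 in knockout and 5.86 in wild-type cells. Dll3 was at 5.65 in knockout and 5.64 in wild-type cells, with a sign that turned under quantile normalization and loess, and Jag1 was at 5.12 in knockout and 5.31 in wild-type cells. Of the ubiquitin ligases that let ligands be taken up, 3 passed the filter, with Mib1 higher by 0.26 and Mib2 at −0.12.

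Of the enzymes that prepare and cut the receptor, more were lower than higher in knockout cells, and none past the filter differed by 1.5-fold. All 5 enzymes that add sugars to Notch were lower, 4 of them past the filter, where 52.9% of all genes were lower by any amount. Pofut1, which adds O-fucose, was at 7.49 in knockout and 7.77 in wild-type cells, and Poglut1, which adds O-glucose, at 7.52 in knockout and 7.67 in wild-type cells. Lfng, whose fringe enzyme extends O-fucose and alters ligand preference, did not pass the filter and is named after its value was seen. It was at 6.01 in knockout and 6.81 in wild-type cells, a difference of −0.80, the only one of at least 1.5-fold among the 63 genes. Of the protease genes past the filter, 5 were lower and 2 higher, with a median of −0.19. The higher genes, named after their values were seen, were Adam17, a relative of Adam10, at 0.24 and the gamma-secretase subunit Ncstn at 0.09. Aph1a, a gamma-secretase subunit, was at 7.70 in knockout and 8.17 in wild-type cells, a difference of −0.47. Its relative Aph1c was at 6.66 in knockout and 7.09 in wild-type cells, a difference of −0.43, and it closely resembles Aph1b in the mouse, so signal between those genes may be shared.

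Factors that recycle or degrade the receptor were split, with 5 higher and 4 lower past the filter. Ccnc, cyclin C, whose kinase marks the intracellular domain for destruction, was at 7.12 in knockout and 7.49 in wild-type cells. Dtx1, a Deltex ubiquitin ligase and itself a Notch target in lymphocytes, was at 6.89 in knockout and 6.60 in wild-type cells.

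The other nuclear partners went both ways, and the largest of their differences were near that of Maml3. Of the other co-activators, 3 were higher and 2 lower. The acetyltransferase genes among them were split, with Ep300 at −0.25 and Kat2b at −0.16. Kat2a was at 0.15 and Crebbp at 0.10, both named after their values were seen. Of the co-repressors, 3 were higher and 7 lower past the filter, with a median of −0.10. The co-repressor Ctbp1 was at 8.94 in knockout and 8.67 in wild-type cells, and Spen, which binds RBPJ in the absence of Notch, was at 8.35 in knockout and 8.60 in wild-type cells. Among other targets, Gata3, a T lineage regulator, was at 6.70 in knockout and 7.16 in wild-type cells, a difference of −0.45. Of the 6 such targets past the filter, 2 were higher and 4 lower, while 3 were higher and 3 lower under each other scaling, where the sign of Hes5 turned.

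**Figure D4:**
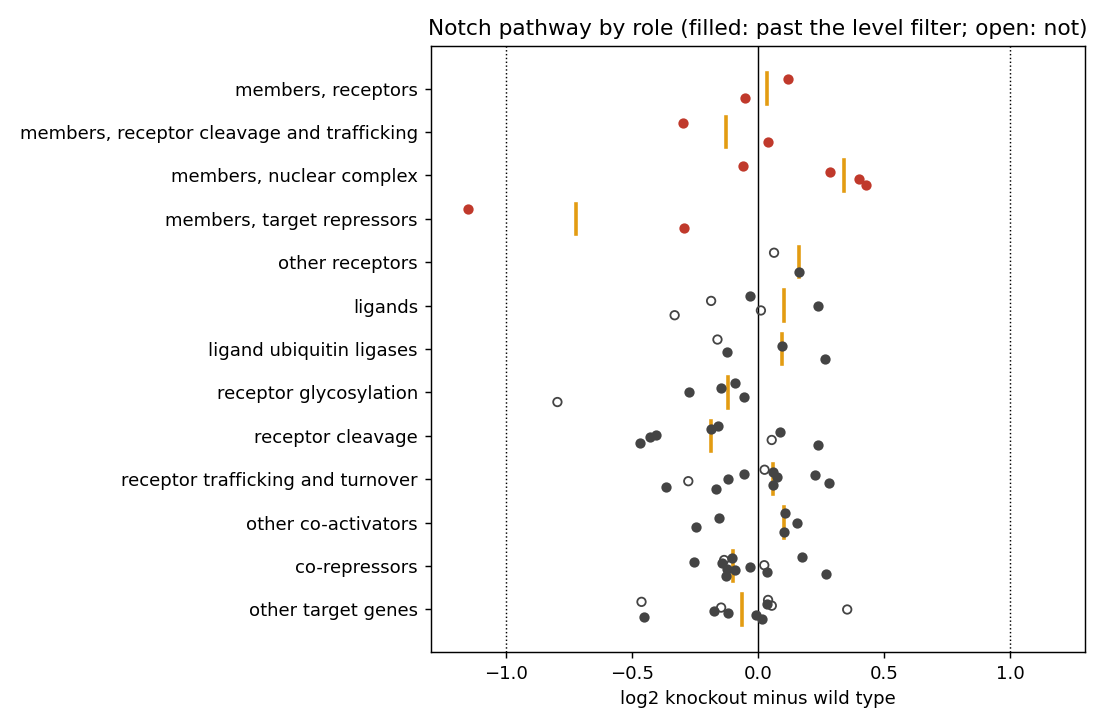
Difference, log2 knockout minus wild type, for each measured Notch pathway gene by role, with the 10 Notch genes in red, genes past the level filter filled, the others open, and the median of the filled points as an orange bar. Dotted lines mark 2-fold. Hey1 is the only filled point past 2-fold, and the Maml genes lie to the right of the other co-activators.

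Markers of other cells differed between the arrays, in both directions. Of all 19938 genes measured, whatever their level, 9350 were lower and 10114 higher by any amount. Of 11 neutrophil markers measured, 10 were lower in knockout cells, with a median difference of −1.63 over the 11, and Ly6g was higher. On the knockout array Retnlg, Mmp8, Mmp9, Cxcr2 and Ly6g were under the filter level, where sizes are less sure. The mean log2 level of the whole list was 7.69 on the knockout array and 9.09 on the wild-type array. Lcn2, a neutrophil granule protein, differed by −2.10, and Retnlg by −2.66. Of 9 monocyte and macrophage markers, 8 were lower and Cd68 was higher, with a list mean of 6.65 in knockout and 7.35 in wild-type cells. Here Adgre1, Ccr2, Ccl6, Fn1 and Mrc1 were under the filter level on the knockout array, and Adgre1 and Mrc1 on both. The part of the neutrophil, monocyte and macrophage markers in the values of Hey1, Hes1 and Numb was not tested. In a pooled RNA sample fewer cells of a type and less RNA per cell cannot be told apart. All 6 T cell markers measured were lower and 5 were under the filter on both arrays, with a list mean of 5.70 in knockout and 5.98 in wild-type cells. Cd3e, the T cell marker past the filter, differed by −0.11. The stromal and endothelial markers had a mean of 6.34 in knockout and 6.25 in wild-type cells. Of their endothelial members, Cdh5 and Kdr were under the filter on both arrays and Pecam1 passed it, all named after their values were seen. Pecam1 was at 9.15 in knockout and 9.23 in wild-type cells. Cdh5 was at 5.76 in knockout and 5.62 in wild-type cells, and Kdr at 4.90 in knockout and 4.63 in wild-type cells. KSL cell markers had a median difference of 0.10 over the 7 genes past the filter, with Meis1 at 0.35 and Mecom at −0.45. Over all 8 measured the median was 0.12. The gene not past the filter, Slamf1, is named after its value was seen. It was at 6.43 in knockout and 5.73 in wild-type cells. Of 5 megakaryocyte markers, 4 were higher, with Pf4, platelet factor 4, at 0.79 and the platelet glycoprotein Gp5 at −0.90; Vwf, named after its value was seen, was at 0.63. The 6 B lineage markers measured were 3 higher and 3 lower, and the 2 past the filter were Cd79b at −0.79 and Vpreb1 at 0.18. The 4 erythroid markers were 2 higher and 2 lower, and the 2 past the filter were Car1 at −0.75 and Tfrc at 0.27.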

How the data were processed

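Per the labels' protocols, RNA of each sorted pool was amplified with NuGEN Ovation kits before hybridisation. The authors deposited 1 log2 intensity for each probe set on each array. No source states the log base, which was read from the range of values, up to 13.8 on the wild-type array. The only tool listed in the submitters' processing notes is Partek, and for background correction, normalization and probe summary the method is not given in the sources used here. Once sorted, the values of the arrays lay within 0.0866 of each other, so a shift shared by all genes could not be seen.

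Of 28853 probe sets, 21789 had exactly 1 gene symbol and were used, and 12 of these belonged to the 10 Notch genes. Probe sets of a gene were averaged, and genes whose mean of both arrays reached the median over genes passed the level filter, which does not test detection. With 1 array per genotype no test was run, and 2-fold was the size counted; the number of arrays limits the precision. The counting was tested on simulated data, with planted changes larger than 2-fold, at high levels and with less scatter than in these data. That test checks the counting itself and not how sure the counts are at the scatter of these arrays.

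The genes and lists were chosen with earlier results of these data known. The naming rule took the 10 genes, Nfe2l2, Kit, every ligand and receptor and, of each list past the filter, genes at least 1.5-fold different and up to 2 with the largest difference (for markers, up to 2 in all). Outside the rule, some neutrophil, monocyte and macrophage markers were named for a level under the filter or for going against their list. Other exceptions are marked in the text. Likeness of pattern cannot be ranked over 2 arrays. Python 3.11.15, numpy 2.4.6, pandas 2.3.3 and statsmodels 0.14.6 were used.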

Additional observations from a re-analysis of the deposited data

How the results depend on the processing

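The alternatives were centring each array on its median, quantile normalization, loess on mean level, no level filter, a filter at the 75th percentile, the brightest probe set of a gene, a 1.5-fold size, means for medians, and lists without their largest difference; setting levels under the filter to it was chosen after seeing the data. Each of the 10 Notch genes kept its sign under every alternative whose filter it passed, though none of these used the dim Rbpj probe set alone. Rbpj moved to −0.35 with the brightest probe set, since the average includes a dim probe set of opposite sign, and Hey1 to −0.90 with low levels set to the filter. The median of the 10 genes, −0.00605, lies so near 0 that it became 0.0141 with centring, 0.0242 with quantile normalization, 0.0208 with loess, 0.0405 with the stricter filter, which left Notch1, Notch2 and Adam10, and 0.0405 without Hey1. The count of Notch genes at least 2-fold different, 1, was 0 with the stricter filter and 0 with low levels set to the filter. The count of other pathway genes at least 1.5-fold different, 0, was 1 with no filter. Over all genes, 117 were at least 2-fold different, 41 higher and 76 lower; these became 182, 62 and 120 with no filter, 40, 11 and 29 with the stricter one, and 662, 233 and 429 at 1.5-fold. No paired analysis was possible because each genotype had 1 array.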
